A study of Drosophila melanogaster with 8 samples.

Results

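Genes of G protein and cyclic AMP signaling were measured in 8 RNA libraries of EGFP-labeled neurons collected by FACS from dissociated adult Drosophila brains. The 38 gene names were chosen by hand from their known roles: heterotrimeric G protein subunits, adenylyl cyclases, phosphodiesterases, protein kinase A (PKA), Epac, the genes that switch receptors off, and the phospholipase branch. Of these, 37 had a row among the 17868 genes of the files. The remaining name, Kurtz, is another name of krz and had no row of its own. The names were chosen with earlier results of these data known. The clock neurons came from clk856 > EGFP flies and neurons of all kinds from nSyb > EGFP flies, so that clock neurons are also part of what nSyb labels. Each genotype is a GAL4 driver with a UAS-EGFP reporter, and no other allele or treatment is named. Males about 2 weeks old were kept in 12:12 light-dark cycles at 25 °C, and brains were taken at ZT2, 2 h after lights on, and at ZT14, 2 h after lights off, with 2 libraries (R1 and R2) per genotype and time. Brains of several flies were pooled for each sort, and fewer cells were collected per clk856 library than per nSyb library. The methods state that neurons were collected in duplicate from a dissociation. If R1 and R2 share a dissociation, which is not stated, the SD and p-values hold only the spread between sorted sets of cells.

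In this pathway a ligand-bound receptor activates a G protein, whose alpha subunit then separates from the beta and gamma subunits. Gs activates adenylyl cyclases, which make cyclic AMP (cAMP), and Gi opposes this, while Gq acts through phospholipase C on calcium and protein kinase C. The cAMP binds to the regulatory subunits of PKA and frees the catalytic subunits, or activates Epac, and phosphodiesterases break it down. In clock neurons the receptor of the neuropeptide PDF signals through Gs and cAMP, and the fly learning mutants rutabaga and dunce carry lesions in a cyclase and a phosphodiesterase.

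The clk856 libraries held 4823985 to 8439193 reads on genes, and the nSyb libraries 7970236 to 8449829. The number of genes with reads was 8939 to 9991 in clk856 and 7937 to 8400 in nSyb, without overlap. This difference goes with genotype, and its part in the results below was not tested. The deposited unit RPM is reads scaled to a total for the library, and 3 reads, taken as the floor of detection, corresponded to 0.161 to 0.299 RPM, which covers counting error only. The labels were checked with markers. All 6 clock neuron markers (Clk, tim, per, vri, cry and Pdf) passed the test as higher in clk856, with a summed level of 303 to 1348 RPM in clk856 libraries and 11.2 to 54.1 RPM in nSyb libraries. The 5 neuron markers summed to 2437 to 2573 RPM and 2313 to 2632 RPM, with brp higher and Syx1A lower in clk856. Of 8 glial markers, 7 were tested and Eaat1 was lower in clk856 (log2 fold change -1.78, adjusted p = 0.0456). The glial markers summed to 78.8 to 132 RPM in clk856 and 139 to 330.1 RPM in nSyb, without overlap, and the part of glial RNA in the results below was not tested. Of 14 photoreceptor markers, 2 were tested, and norpA and inaD were lower in clk856. Of these markers norpA carried nearly all the signal, the other 13 summed to at most 12.7 RPM in any library, and Rh3, Rh6 and Arr2 were at 0 in all 8. Of 5 Kenyon cell markers prt was lower in clk856, and the sums overlapped (559 to 629 RPM and 543 to 746 RPM). Of 5 markers of hemocytes, fat body and muscle none had enough reads for a test, and Fbp1 and Lsp2 were at 0 in all 8 libraries. Their sum reached 11.7 RPM in a clk856 library and 0.05 RPM in an nSyb library. Only the nSyb libraries were deposited under names with an index number. Should the naming follow the sequencing run, genotype and run cannot be told apart.

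The first comparison asked which of these genes were expressed differently in clock neurons and in neurons at large, with both times combined. Of 33 members with enough reads for the test, 16 differed (48.5%), 9 higher and 7 lower in clk856. Over all 7784 genes tested the share was 17.0%, with 10.3% higher and 6.69% lower. Because the members were chosen with earlier results of these data known, setting these shares side by side is a description and not a test. At an unadjusted p under 0.05 there were 17 members and 29.6% of all genes, and DESeq2 called 17 members and 27.3% of all genes. Among the 5900 genes with a mean of at least 10 RPM, a minimum chosen after the data were seen, 20.5% differed, as did 16 of the 31 members above it (51.6%). The members higher in clk856 were the phosphodiesterases Pde11, Pde6 and Pde8, the receptor kinase Gprk2, the cyclase Ac13E, the PKA subunits Pka-R1 and Pka-C1, the calcium channel Itpr and the alpha subunit Galphao. Those lower in clk856 were Pka-C3, both G gamma genes, Epac, Gprk1, Plc21C and Pkc53E. The test was edgeR's quasi-likelihood test on the deposited counts of 4 against 4 libraries after TMM normalization, with Benjamini-Hochberg adjustment over the 7784 genes and a threshold of 0.05, and a change is given as its log2 value ± standard error (SE). The SE was calculated back from the test, as the absolute log2 fold change over the square root of the F statistic. The members had a median percentile of level of 80.1 in clk856 and 80.9 in nSyb. This rank is over all genes with an exon length, tested or not. Genes without reads are included and had a percentile of 17.4 in clk856 and 21.7 in nSyb. The place of the members among the genes tested was not calculated. In bulk samples, fewer cells that express a gene and less RNA per cell cannot be told apart.

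The RPM of the 4 clk856 libraries did not overlap those of the 4 nSyb libraries for 16 of the 33 members, 9 higher and 7 lower, against 25.8% of all genes tested (13.5% higher, 12.3% lower). These were the members that passed the test, with Pkc98E, which had an adjusted p of 0.0603, in place of Itpr, whose libraries overlapped. An exact permutation test of single members cannot give a two-sided p below 0.0286 with 4 against 4 libraries, and the 16 members without overlap had that value. Scaling by library size alone, in place of TMM, moved the median of all genes by -0.13 on the log2 scale, from -0.014 to -0.14. Of the members 6 were then higher and 7 lower, against 18.8% of all genes, of which 675 were higher and 787 lower where TMM gave 805 and 521. The members lost were Pde6 (adjusted p = 0.0630), Pde8 (0.0755) and Itpr (0.0543). With the 2 against 2 libraries of ZT2 alone 0 members passed the edgeR test, against 0.100% of all genes then tested, and with ZT14 alone Pka-R1, Ggamma1 and Ggamma30A passed, against 4.18%. The log2 fold changes of all 16 members kept their direction at each time, with Pde11 at 2.33 at ZT2 and 2.07 at ZT14, Pka-R1 at 1.61 and 0.99, and Epac at -0.57 and -0.67, and these tests had 2 libraries of each genotype. Leaving out each library in turn left 12 to 14 of the 33 members past the threshold (36.4% to 42.4%). Of all genes, from 942 of 8021 to 1380 of 8146 passed in these fits.

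**Figure D1:**
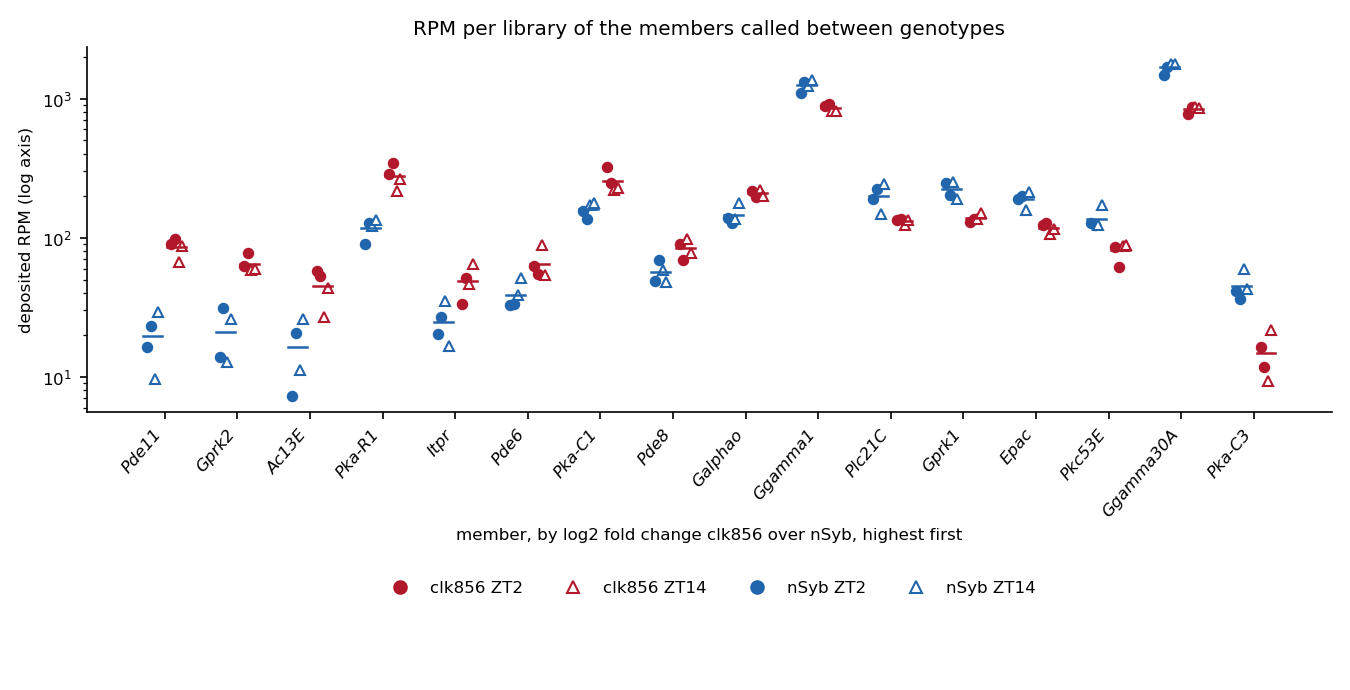
The RPM of each library (log axis) is drawn for the 16 members that passed the genotype test, red for clk856 and blue for nSyb, filled circles for ZT2 and open triangles for ZT14, with lines at the means of 4 libraries. The red and blue points of 15 members do not overlap, and those of Itpr do.

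**Figure D2:**
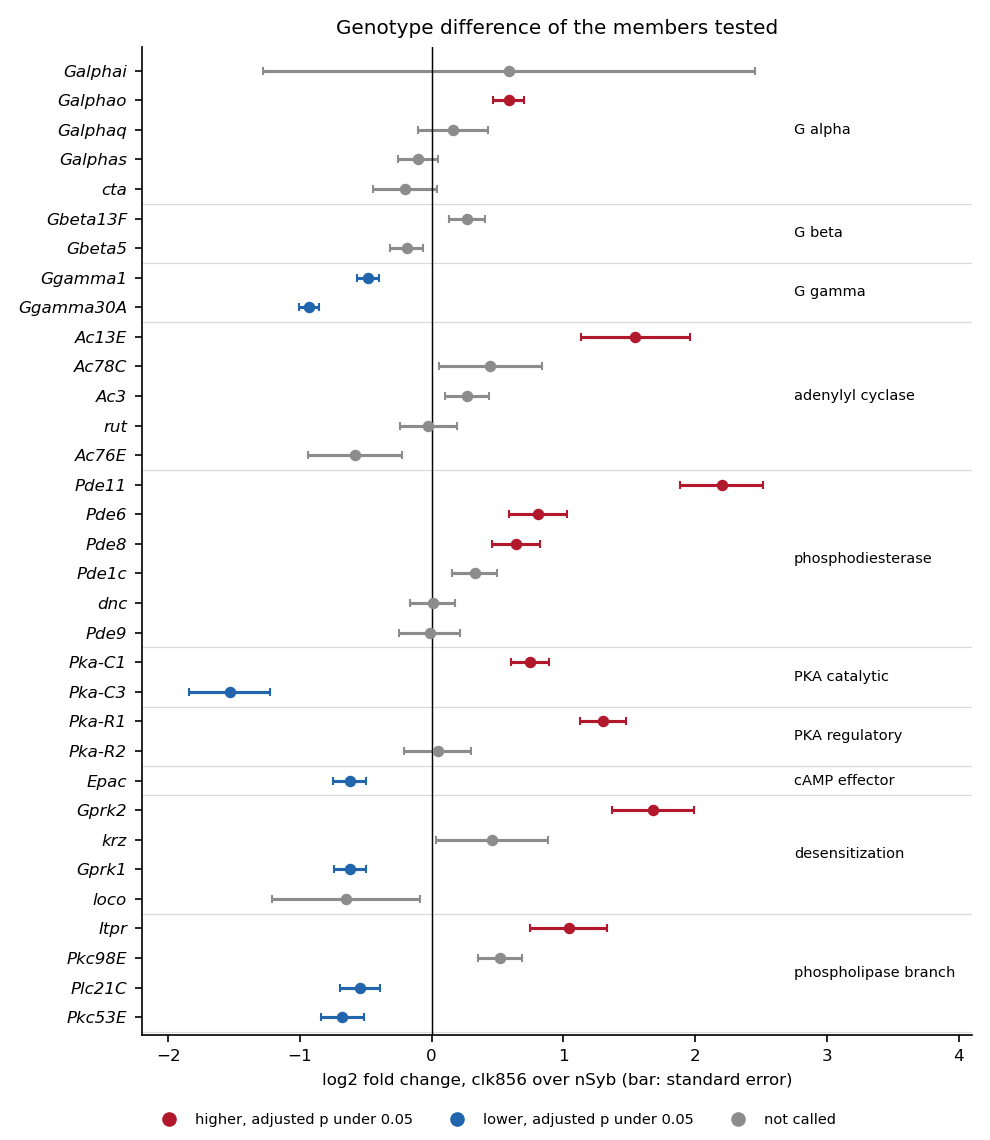
The log2 fold change of clk856 over nSyb from edgeR is drawn for the 33 members tested, grouped by role, with bars for the standard error. Red marks the 9 members that were higher, blue the 7 that were lower and grey the 17 that did not pass the test.

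Levels of different genes were compared as exonic RPKM, that is, reads per kilobase of merged exon per 1000000 reads on genes. Ggamma1 had the highest level of the members in both genotypes, at 648 ± 35.4 in clk856 and 988 ± 90.9 in nSyb (SD, n = 4), and Gbeta5 came next at 282 ± 33.7 and 352 ± 39.1. In clk856 the following members were Gbeta13F (175 ± 16.7), Galphas (162 ± 12.6), Ggamma30A (141 ± 6.62) and Gprk1 (115 ± 7.04), and in this order only the libraries of Gbeta13F and Galphas overlapped. In nSyb they were Ggamma30A (294 ± 26.2), Gprk1 (194 ± 26.9), Galphas (191 ± 40.6) and Gbeta13F (159 ± 28.1), of which the last 3 overlapped. The place of Gprk1 depends on the length used: with the deposited length, which holds introns, it ranked 27 in clk856 and 23 in nSyb. The lowest members with reads in clk856 were Galphai, inaC, loco and Galphaf, each under 3 exonic RPKM.

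Of the G protein alpha subunits, Galphao rose in clk856 and the others did not pass the test. Galphao (chromosome 2R, 10437985 to 10465701 of dm6) encodes the alpha subunit of Go, which is abundant in nervous systems. In the order ZT2 R1, ZT2 R2, ZT14 R1 and ZT14 R2, which is kept below, Galphao had 215, 197, 220.2 and 198 RPM in the clk856 libraries and 139, 128, 136 and 178 RPM in the nSyb libraries. Each clk856 library was above each nSyb library. The means were 208 ± 11.6 RPM and 145 ± 22.3 RPM (SD, n = 4), and the log2 fold change was 0.59 ± 0.12 (SE, adjusted p = 0.00767), or 1.50-fold. Galphas (chromosome 2R, 23942538 to 23946936), which activates the cyclases, had the highest level of the family per length. It had 178, 157, 149.9 and 167 RPM in the clk856 libraries and 231, 137, 196 and 173 RPM in the nSyb libraries, and these ranges overlapped. Its log2 fold change of -0.10 ± 0.15 (SE, adjusted p = 0.714) did not pass the test. Galphaq and cta had log2 fold changes of 0.16 (adjusted p = 0.750) and -0.20 (0.654). Galphaq shares 44.1% of its exon bases with CG45086 on the same strand, a gene with 0 reads in all 8 libraries. Reads on the shared bases may be among the ambiguous reads that were left out. How far this alters the level of Galphaq and the shares and sums of the alpha subunits was not tested.

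Galphai, the alpha subunit of Gi, was low. It had 2.80, 2.69, 2.00 and 2.67 RPM in the clk856 libraries and 0, 0, 0 and 7.24 RPM in the nSyb libraries, that is, reads in each clk856 library but in only ZT14 R2 of nSyb. With that library its log2 fold change was 0.59 (adjusted p = 0.874). Leaving out that library, the only one of nSyb with reads, put nSyb at 0 throughout. That Galphai then passed the test (edgeR, adjusted p = 0.0129) follows from this choice and is not a result, and no fold is given. Galphaf, an insect alpha subunit, had 0 to 3.34 RPM in clk856 and 0 to 0.480 RPM in nSyb and was not tested. Within a library, the ratio of Galphao to Galphas in reads per kilobase of exon was 0.392 to 0.484 in clk856 and 0.199 to 0.339 in nSyb, without overlap. The share of Galphao in the reads per kilobase of all alpha subunits was 22.8% to 26.3% and 14.7% to 19.9%. The exonic RPKM of the alpha subunits summed to 272 to 295 in clk856 and 246 to 318 in nSyb and overlapped.

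Both G gamma genes fell in clk856, and no G beta gene passed the test. Ggamma30A (chromosome 2L, 9256563 to 9302494), known for its part in fly phototransduction, had 1468, 1699, 1783 and 1779 RPM in the nSyb libraries and 779, 873, 864 and 853 RPM in the clk856 libraries. Every nSyb library was above every clk856 library. Photoreceptor markers other than norpA summed to 0.500 to 9.48 RPM in clk856 and 6.01 to 12.7 RPM in nSyb. For Ggamma30A the change on the log2 scale was -0.93 ± 0.078 (SE, adjusted p = 6.7e-05), so that nSyb was 1.91-fold higher. Ggamma1 (chromosome 2R, 8901404 to 8904791), the other gamma subunit of flies, had 1102, 1312, 1225 and 1367 RPM in the nSyb libraries and 881, 914, 811 and 817 RPM in the clk856 libraries, again without overlap. On the log2 scale Ggamma1 changed by -0.48 ± 0.085 (SE, adjusted p = 0.00397). Gbeta5 (chromosome X, 8150731 to 8152275), the beta subunit that pairs with RGS proteins, had the highest level of the beta family, at 282 ± 33.7 exonic RPKM in clk856 and 352 ± 39.1 in nSyb (SD, n = 4). It had 239, 199.8, 181 and 210.3 RPM in the clk856 libraries and 228, 264, 276 and 224 RPM in the nSyb libraries, which overlapped, and a log2 fold change of -0.19 ± 0.12 (SE, adjusted p = 0.352). Gbeta13F, the main beta subunit of flies, had a log2 fold change of 0.27 (adjusted p = 0.218). Gbeta76C, the beta subunit of the eye, had 0 reads in all 8 libraries.

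The exonic RPKM of the gamma subunits summed to 760.4 to 829.9 in clk856 and 1123 to 1378 in nSyb. The beta subunits summed to 407 to 525 and 483 to 543, which overlapped. The ratio of gamma to beta within a library was thus 1.53 to 1.87 in clk856 and 2.33 to 2.74 in nSyb, without overlap. Most of the beta sum is Gbeta5 (60.5% to 63.3% in clk856, 62.6% to 76.5% in nSyb), which pairs with RGS proteins. It is therefore not a ratio of subunits that pair with each other. Within the gamma family, the ratio of Ggamma1 to Ggamma30A was 4.25 to 5.11 in clk856 and 3.11 to 3.49 in nSyb, again without overlap. These ratios were not tested.

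Of the 5 adenylyl cyclases, Ac13E rose in clk856 and 4 did not pass the test. Ac13E (chromosome X, 15510877 to 15554278), a membrane cyclase, had 57.4, 53.3, 27.1 and 43.2 RPM in the clk856 libraries and 7.32, 20.7, 11.1 and 26.0 RPM in the nSyb libraries. All 4 clk856 libraries were above the nSyb libraries, although ZT14 R1 of clk856 was close to ZT14 R2 of nSyb. The means were 45.3 ± 13.5 RPM and 16.3 ± 8.58 RPM (SD, n = 4), and the log2 fold change was 1.54 ± 0.41 (SE, adjusted p = 0.0285), or 2.92-fold. Leaving out any one of clk856 ZT14 R2 (0.0663), clk856 ZT2 R1 (0.0895), clk856 ZT2 R2 (0.0838) or nSyb ZT14 R1 (0.0659) ended this call, with the adjusted p in parentheses. Of its exon bases 4.27% overlap Gmap on the other strand, and the strand used in counting is not given in the sources used here. Ac3 (chromosome 2L, 21632587 to 21647964), a cyclase reported to act downstream of the PDF receptor in a group of clock neurons, had the highest level of the family. It had 89.4, 93.8, 122 and 130.3 RPM in the clk856 libraries and 95.4, 75.9, 114 and 92.9 RPM in the nSyb libraries, which overlapped, and a log2 fold change of 0.27 ± 0.17 (SE, adjusted p = 0.328).

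The other cyclases had log2 fold changes of -0.026 for rut (adjusted p = 0.955), the calcium-sensitive cyclase of learning, 0.45 for Ac78C (0.511) and -0.58 for Ac76E (0.319). The exonic RPKM of the 5 genes summed to 83.7 to 109 in clk856 and 87.3 to 102 in nSyb and overlapped. Within this sum, Ac13E held 7.67% to 16.3% of the cyclase reads per kilobase in a clk856 library and 2.25% to 6.83% in an nSyb library. Ac76E held 6.94% to 20.6% and 21.7% to 35.9%, the other way round, and neither pair of ranges overlapped. The plot of shares by family shows both.

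**Figure D3:**
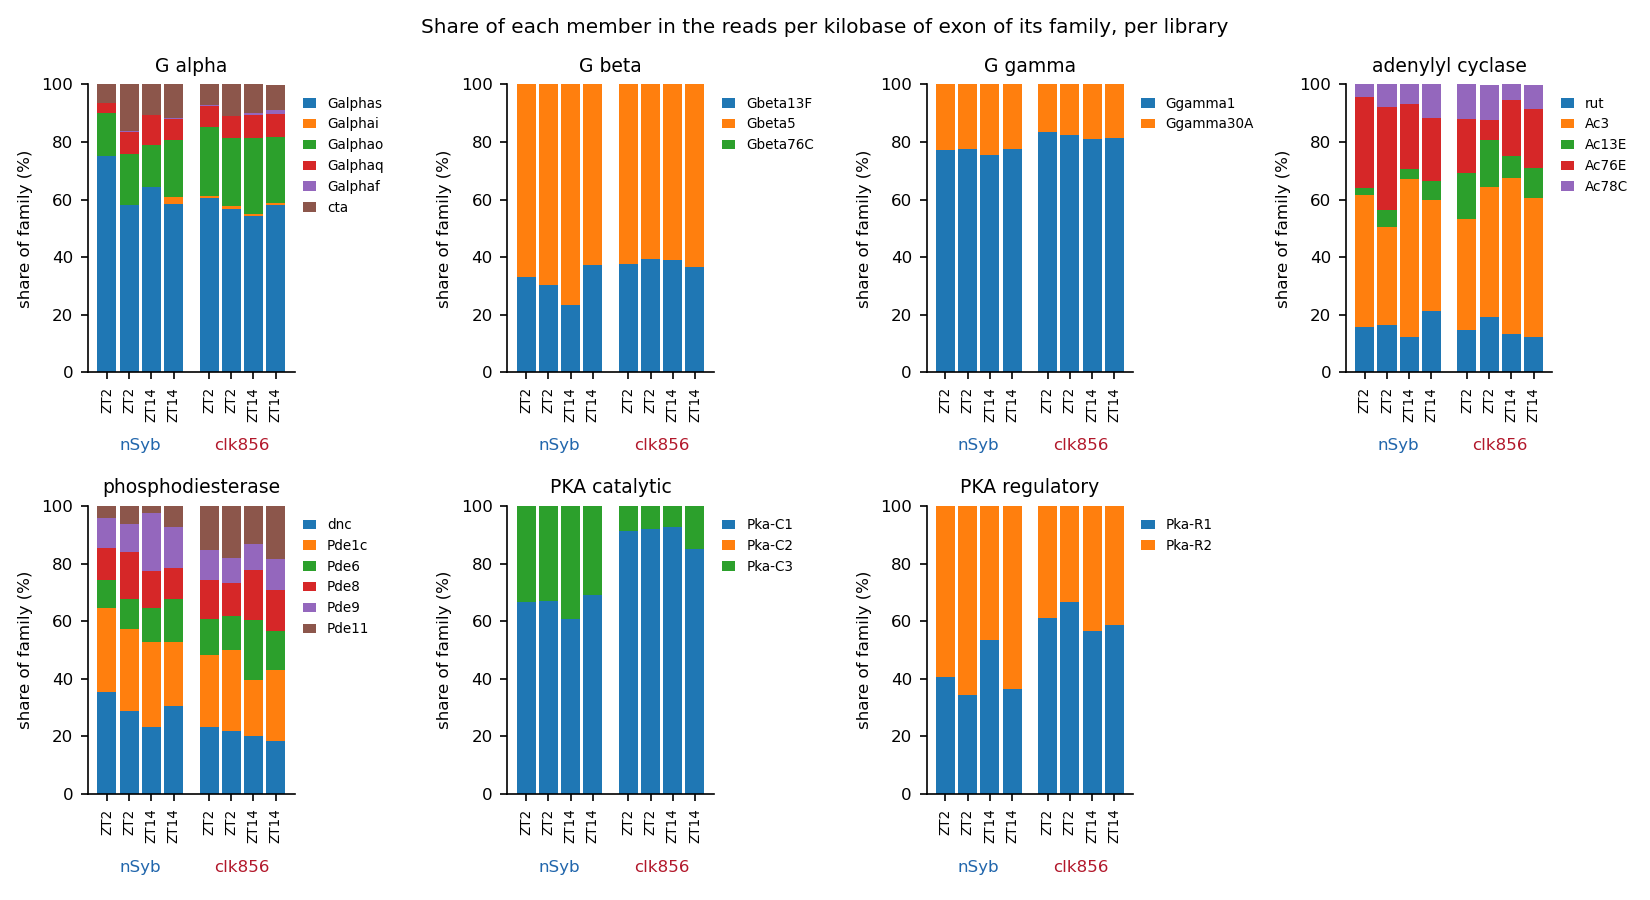
Bars give the share of each member in the reads per kilobase of exon of its family (percent), for the 4 nSyb and the 4 clk856 libraries of 7 families. Galphao, Ggamma1, Ac13E, Pde11, Pka-C1 and Pka-R1 take larger shares in each clk856 library than in any nSyb library, and Ggamma30A, Ac76E, Pka-C3 and Pka-R2 smaller ones. The shares of a family add up to the whole, so that a larger share of a gene means smaller shares of others.

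Of the 6 phosphodiesterases, 3 rose in clk856 and none fell. Pde11 (chromosome 2L, 18532025 to 18590342), which breaks down both cAMP and cyclic GMP, had the largest log2 fold change of the 33 members tested. It had 90.4, 98.0, 66.4 and 87.2 RPM in the clk856 libraries and 16.3, 23.1, 9.64 and 29.0 RPM in the nSyb libraries. The lowest clk856 library was above the highest nSyb library by more than the spread within nSyb. The means were 85.5 ± 13.5 RPM and 19.5 ± 8.37 RPM (SD, n = 4), and the log2 fold change was 2.20 ± 0.32 (SE, adjusted p = 0.00129), or 4.60-fold. Pde6 (chromosome 3R, 14513901 to 14558304), an enzyme specific for cyclic GMP, had 62.9, 54.4, 88.7 and 53.9 RPM in the clk856 libraries and 33.0, 33.1, 38.7 and 51.2 RPM in the nSyb libraries. These did not overlap, but the lowest clk856 library and the highest nSyb library were close. Pde6 had a log2 fold change of 0.81 ± 0.22 (SE, adjusted p = 0.0321). Leaving out any one of clk856 ZT14 R1 (0.113), clk856 ZT2 R1 (0.0751), nSyb ZT14 R1 (0.0600), nSyb ZT2 R1 (0.0626) or nSyb ZT2 R2 (0.0658) ended the call of Pde6, with the adjusted p in parentheses.

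Pde8 (chromosome 2R, 23657567 to 23680844), an enzyme specific for cAMP, had 90.6, 69.1, 97.3 and 77.3 RPM in the clk856 libraries and 49.1, 68.8, 58.6 and 48.3 RPM in the nSyb libraries. The lowest clk856 library of Pde8 was just above the highest nSyb library, and both were ZT2 R2. The test gave it a log2 fold change of 0.64 ± 0.18 (SE, adjusted p = 0.0381). The call of Pde8 was lost without any one of clk856 ZT14 R1 (0.114), clk856 ZT14 R2 (0.0684), clk856 ZT2 R1 (0.0987), nSyb ZT14 R1 (0.0610), nSyb ZT14 R2 (0.0797) or nSyb ZT2 R1 (0.0725), and with time as a covariate (adjusted p = 0.0540). Pde1c (chromosome 2L, 11814156 to 11928572) is the calcium- and calmodulin-dependent enzyme, and dnc (chromosome X, 3176440 to 3343767) the cAMP-specific enzyme altered in dunce. Pde1c had the highest mean level of the family in clk856, and dnc had it in nSyb. In exonic RPKM Pde1c had 35.1 ± 6.77 in clk856 and 30.6 ± 3.87 in nSyb, and dnc had 30.2 ± 6.09 and 32.9 ± 5.64 (SD, n = 4). Their order differed between libraries of the same genotype. Pde1c had 153, 156, 101 and 122 RPM in the clk856 libraries and 119.5, 112, 121 and 91.6 RPM in the nSyb libraries, and a log2 fold change of 0.33 ± 0.17 (SE, adjusted p = 0.236). The values of dnc were 298, 257, 216 and 188 RPM in the clk856 libraries and 303, 235, 199 and 266 RPM in the nSyb libraries, with a log2 fold change of 0.0087 ± 0.17 (SE, adjusted p = 0.981). The libraries of both genes overlapped. Pde9, specific for cyclic GMP, had a log2 fold change of -0.015 (adjusted p = 0.976).

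In exonic RPKM, the phosphodiesterases together reached 129 to 162 in clk856 and 108 to 113 in nSyb, without overlap. The family order depends on the gene length used. With the deposited length Pde8 had the highest level of the family in both genotypes. The share of Pde11 was 13.3% to 18.3% of the family in clk856 and 2.44% to 7.24% in nSyb by exon length, again without overlap.

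The PKA subunits moved in different directions. Pka-R1 (chromosome 3L, 20816118 to 20836048), the type I regulatory subunit, had 286, 345, 216 and 263 RPM in the clk856 libraries and 89.8, 128, 120.3 and 135 RPM in the nSyb libraries. All clk856 libraries were above all nSyb libraries, by a gap larger than the range within nSyb. The means were 278 ± 53.6 RPM and 118 ± 19.8 RPM (SD, n = 4), and the log2 fold change was 1.30 ± 0.17 (SE, adjusted p = 8.5e-04), or 2.47-fold. Pka-R2 (chromosome 2R, 9993890 to 10026042), the type II regulatory subunit, which flies need for normal locomotor rhythms, did not pass the test. It had 171, 161, 156 and 174 RPM in the clk856 libraries and 123, 231, 97.9 and 219.6 RPM in the nSyb libraries, with overlap, and a log2 fold change of 0.047 ± 0.25 (SE, adjusted p = 0.927). Within a library, the ratio of Pka-R1 to Pka-R2 per kilobase of exon was 1.30 to 2.01 in clk856 and 0.520 to 1.15 in nSyb. By exon length Pka-R1 was the more abundant regulatory subunit in 4 of 4 clk856 libraries and Pka-R2 in 3 of 4 nSyb libraries, while by the deposited length Pka-R1 had the higher mean in both genotypes.

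Of the catalytic subunits, Pka-C1 rose and Pka-C3 fell in clk856. Pka-C1 (chromosome 2L, 9682315 to 9699297), the main catalytic subunit of flies, had 323, 247, 218 and 229 RPM in the clk856 libraries and 154, 136, 170.3 and 177 RPM in the nSyb libraries. No library of one genotype lay within the range of the other. Pka-C1 had a log2 fold change of 0.75 ± 0.15 (SE, adjusted p = 0.00661), or 1.68-fold. Pka-C3 (chromosome 3L, 15925805 to 15954797), a relative of the human kinase PRKX, had 41.3, 36.3, 59.0 and 42.9 RPM in the nSyb libraries and 16.5, 11.7, 9.39 and 21.6 RPM in the clk856 libraries. Each nSyb library was above each clk856 library. On the log2 scale Pka-C3 changed by -1.53 ± 0.31 (SE, adjusted p = 0.00734), so that nSyb was 2.89-fold higher. Pka-C2 had 0 reads in all 8 libraries. Pka-C3 thus made up 7.38% to 14.9% of the catalytic reads per kilobase of exon in clk856 and 31.0% to 39.1% in nSyb. The ratio of all catalytic to all regulatory subunits overlapped, at 0.469 to 0.681 in clk856 and 0.491 to 1.12 in nSyb.

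Epac (chromosome 2R, 6759715 to 6798941), the exchange factor of Rap that cAMP activates without PKA, fell in clk856. It had 190.4, 199, 158 and 212 RPM in the nSyb libraries and 123, 127, 106 and 115 RPM in the clk856 libraries. The highest clk856 library was below the lowest nSyb library. Its difference on the log2 scale was -0.62 ± 0.12 (SE, adjusted p = 0.00684), so that nSyb was 1.54-fold higher. Set against the PKA regulatory subunits, which bind the same messenger, Epac had a ratio per kilobase of exon of 0.157 to 0.178 in clk856 and 0.342 to 0.555 in nSyb, without overlap.

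The 2 receptor kinases, which phosphorylate active receptors so that arrestins can bind, went in opposite directions. Gprk2 (chromosome 3R, 31405245 to 31457873) had 62.7, 77.4, 58.7 and 59.2 RPM in the clk856 libraries and 13.8, 31.4, 12.8 and 26.0 RPM in the nSyb libraries. Its clk856 libraries were alike and all above the nSyb libraries. The means were 64.5 ± 8.80 RPM and 21.01 ± 9.14 RPM (SD, n = 4), and the log2 fold change was 1.68 ± 0.31 (SE, adjusted p = 0.00502), or 3.21-fold. Of its exon bases 3.88% overlap PNPase on the other strand. Gprk1 (chromosome 2R, 4322295 to 4471060) had 248, 202, 249 and 191 RPM in the nSyb libraries and 129, 137, 137 and 150.3 RPM in the clk856 libraries, also without overlap. For Gprk1 the log2 fold change was -0.62 ± 0.12 (SE, adjusted p = 0.00638). In exonic RPKM, Gprk1 stayed the more abundant of the pair in both genotypes, at 115 ± 7.04 against 28.9 ± 3.75 for Gprk2 in clk856 and 194 ± 26.9 against 9.81 ± 4.29 in nSyb (SD, n = 4). The arrestin krz had a log2 fold change of 0.46 (adjusted p = 0.542), and loco, an RGS protein that ends Gi and Go signals, -0.65 (0.502). Of the exon bases of loco 13.5% overlap an antisense RNA, and those of Galphaf (9.26%), rut (4.37%), Pde1c (4.17%) and Plc21C (1.92%) also overlap genes on the other strand. With the deposited length, Gprk2 had a higher mean level than Gprk1 in clk856 and a lower one in nSyb.

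In the phospholipase branch Itpr rose and Plc21C and Pkc53E fell in clk856. Itpr (chromosome 3R, 5517117 to 5539411), the inositol trisphosphate receptor that releases calcium from the endoplasmic reticulum, had 33.4, 51.1, 46.3 and 64.7 RPM in the clk856 libraries and 20.2, 26.9, 35.3 and 16.7 RPM in the nSyb libraries. The lowest clk856 library, ZT2 R1, lay below ZT14 R1 of nSyb, so that the genotypes overlapped (exact permutation p = 0.0571). The log2 fold change of Itpr was 1.04 ± 0.29 (SE, adjusted p = 0.0357). Leaving out any one of clk856 ZT14 R1 (0.0750), clk856 ZT14 R2 (0.119), clk856 ZT2 R2 (0.0844), nSyb ZT14 R2 (0.0673), nSyb ZT2 R1 (0.0691) or nSyb ZT2 R2 (0.0515) ended this call. Its deposited length is 0, and its level was calculated from the exons of the annotation.

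Plc21C (chromosome 2L, 305935 to 355566), a phospholipase C beta that Gq activates, had 189, 224, 148 and 242 RPM in the nSyb libraries and 134, 137, 122 and 133 RPM in the clk856 libraries. The lowest nSyb library, ZT14 R1, was just above the highest clk856 library. The log2 fold change of Plc21C was -0.54 ± 0.15 (SE, adjusted p = 0.0333), and the call was lost without any one of clk856 ZT14 R1 (0.0967), clk856 ZT14 R2 (0.0866), clk856 ZT2 R1 (0.0751), clk856 ZT2 R2 (0.0711), nSyb ZT14 R2 (0.0798) or nSyb ZT2 R2 (0.0763). Pkc53E (chromosome 2R, 16924655 to 16945126), a conventional protein kinase C, had 128, 123, 122 and 171 RPM in the nSyb libraries and 86.1, 61.8, 87.4 and 88.8 RPM in the clk856 libraries, without overlap. Its log2 fold change was -0.68 ± 0.16 (SE, adjusted p = 0.0168). Pkc98E, a kinase C that needs no calcium, was at 249 to 304 RPM in clk856 and 155 to 243 RPM in nSyb, without overlap. Its log2 fold change of 0.52 ± 0.17 (SE, adjusted p = 0.0603) did not pass the test, and passed it without nSyb ZT2 R2 (adjusted p = 0.0258). Of 18 alternatives 5 called Pkc98E, the others being DESeq2, edgeR's exact and likelihood ratio tests and a block for the replicate number. The eye kinase inaC was not tested, with 0 to 7.52 RPM in clk856 and 0 to 0.0600 RPM in nSyb.

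The next comparison asked whether these genes differed between ZT14 and ZT2. In clk856, 0 of 34 members tested passed the edgeR test, against 0.0244% of all 8188 genes, and in nSyb 0 of 32, against 0% of 7671. DESeq2 (1.04% of all genes in clk856, 2.92% in nSyb) and edgeR's likelihood ratio test (1.18% and 0.0782%) also called 0 members in each genotype. At an unadjusted p under 0.05 there were 5 members in clk856 (6.77% of all genes) and 1 in nSyb (3.95%). The 5 in clk856, named after their values were seen, were Ac3 with a log2 fold change of 0.46, Ac13E with -0.66, dnc with -0.46, Pde1c with -0.47 and Pka-R1 with -0.40. Their adjusted p ranged from 0.690 to 0.725. The 1 in nSyb was Pde9, with 0.77 (adjusted p = 0.9999). With 2 against 2 libraries an exact permutation test cannot give a p below 0.333.

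In clk856 the 2 ZT14 libraries did not overlap the 2 ZT2 libraries for 21 of 34 members, against 38.5% of all genes tested. They were both below for 16 of these members, against 17.5% of all genes, and both above for the other 5, where 1716 of all 8188 genes were above and 1433 below. The 16 included the regulatory and catalytic subunits Pka-R1 and Pka-C1, the phosphodiesterases dnc, Pde1c and Pde11 and the cyclases rut, Ac13E and Ac78C, and the 5 were Galphaq, Galphaf, Ac3, Gprk1 and Pkc53E. In nSyb 7 of 32 members did not overlap (32.4% of all genes), with 6 above and 1, Ac76E, below, where all genes gave 17.0% and 15.4%. None of these members passed the test, and the counts of members share libraries and are not independent. The plot of time differences by member gives each log2 fold change with its standard error.

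**Figure D4:**
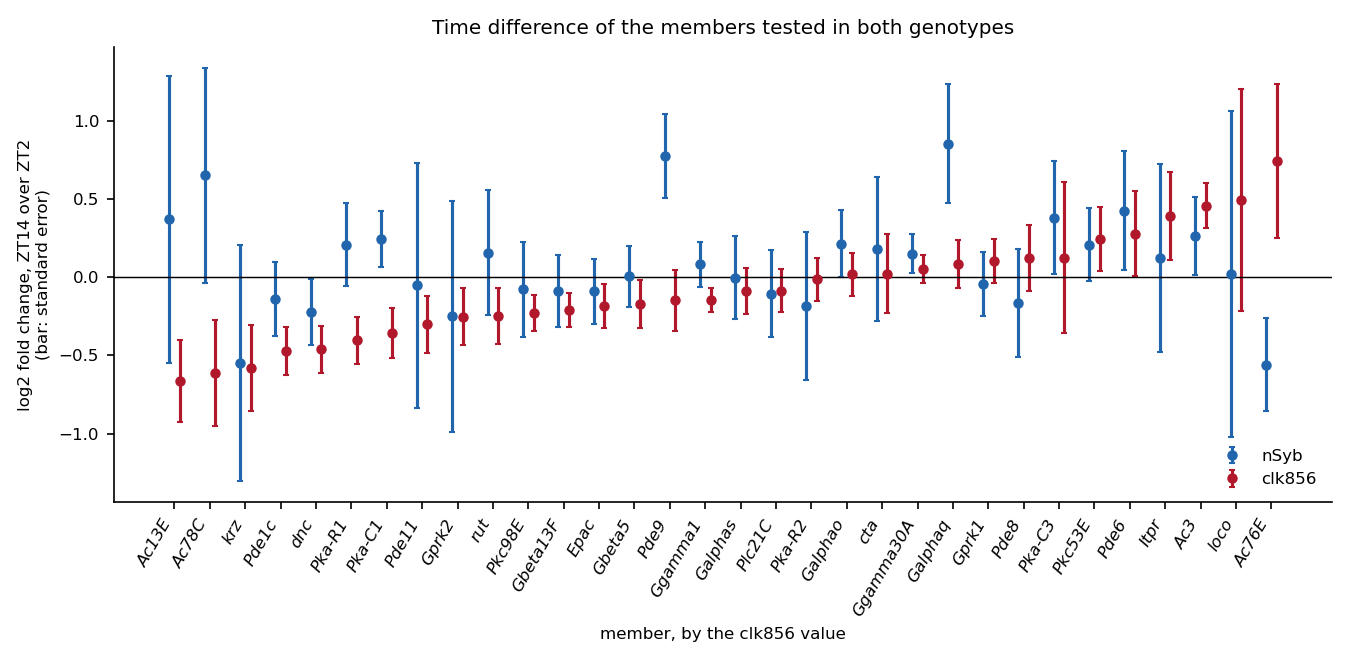
The log2 fold change of ZT14 over ZT2 from edgeR is drawn for the members tested in both genotypes, red for clk856 and blue for nSyb, with bars for the standard error, in the order of the clk856 value. No member passed the test in either genotype.

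An interaction term tested whether the time effect differed with genotype. It was past the threshold for 0 of 34 members by edgeR's quasi-likelihood test, against 0.0112% of 8926 genes, and also for 0 by the likelihood ratio test (0.952% of all genes) and DESeq2 (2.12%). An unadjusted p under 0.05 was found for 3 members (6.51% of all genes), namely Galphai, Pde9 and Pka-C1, with adjusted p from 0.750 to 0.765.

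The wider pathway was read from lists of genes outside the members, with the same genotype test and the background of 17.0%. Of 9 other genes listed as cyclases, without regard to the cyclic nucleotide they make, 3 were tested and 2 rose in clk856. They were CG34357 with a log2 fold change of 0.60 ± 0.16 (SE, adjusted p = 0.0259) and CG43373 with 0.95 ± 0.29 (SE, adjusted p = 0.0460). The median of the 3 was 0.60, where all genes had -0.014. In the list of the cyclic GMP branch, which leaves these cyclases out, 6 of 9 were tested and 1 rose, the guanylyl cyclase subunit Gycbeta100B. It had 97.2 to 136 RPM in clk856 and 45.6 to 62.2 RPM in nSyb and a log2 fold change of 1.06 ± 0.16 (SE, adjusted p = 0.00179), with a list median of 0.83. That median includes genes with few reads and large errors, such as Gyc32E at 1.90 ± 1.73 (SE), with means of 9.93 RPM in clk856 and 2.82 RPM in nSyb. Of 12 anchors and effectors of cAMP, all tested, 2 rose and 1 fell, with a median of 0.62. These were the cyclic nucleotide channel subunit CngB at 2.11 ± 0.35 (SE, adjusted p = 0.00286), nvy, a PKA-anchoring protein at 2.01 ± 0.54 (SE, adjusted p = 0.0287), and the channel Cngl at -0.59 ± 0.14 (SE, adjusted p = 0.0163). CrebB, the transcription factor that PKA phosphorylates, had a log2 fold change of 1.78 and did not pass the test (adjusted p = 0.0853). Larger changes that also did not pass were those of CngA (2.16, adjusted p = 0.136) and CrebA (2.13, 0.260). The other genes that did not pass ranged from -0.20 (Akap200) to 1.14 (rg). The list median includes genes with few reads, such as rg, with means of 3.08 RPM in clk856 and 1.45 RPM in nSyb.

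Of the receptor and G protein regulators 5 of 8 with a row were tested and 1 rose, RSG7, the RGS protein that binds Gbeta5, with a log2 fold change of 0.78 ± 0.14 (SE, adjusted p = 0.00437) and a list median of 0.33. In the calcium and phospholipase list 14 of 18 were tested, 3 rose and 2 fell, with a median of -0.14. The largest changes among these 5 were those of the calcium pump SERCA with 1.84 ± 0.41 (SE, adjusted p = 0.0120), the atypical kinase aPKC with 1.33 ± 0.19 (SE, adjusted p = 0.00131) and the phospholipase norpA with -0.54 ± 0.15 (SE, adjusted p = 0.0377). CaMKII (0.48, adjusted p = 0.0124) also rose, and CaMKI (-0.53, 0.0163) also fell. Of the exon bases of SERCA 16.0% overlap another gene, and of those of CG43373 12.4%. Larger parts overlap in genes of the lists that did not pass the test, such as rg (94.4%), Gyc89Db (92.1%) and Gyc89Da (85.0%). Single libraries ended some of these calls. The call of CG43373 was lost without any one of clk856 ZT14 R1 (0.0755), clk856 ZT14 R2 (0.0753), clk856 ZT2 R1 (0.107), clk856 ZT2 R2 (0.114), nSyb ZT14 R1 (0.0756), nSyb ZT14 R2 (0.0926) or nSyb ZT2 R2 (0.0816), and that of CG34357 without any one of clk856 ZT14 R1 (0.0704), clk856 ZT14 R2 (0.0529), clk856 ZT2 R1 (0.0820) or nSyb ZT14 R2 (0.0546). The call of nvy was lost without any one of clk856 ZT14 R1 (0.0718), clk856 ZT14 R2 (0.0703), clk856 ZT2 R1 (0.0607), clk856 ZT2 R2 (0.0641), nSyb ZT14 R2 (0.0571) or nSyb ZT2 R2 (0.0595), and that of norpA without any one of clk856 ZT14 R1 (0.0869), clk856 ZT14 R2 (0.100), clk856 ZT2 R2 (0.0667), nSyb ZT14 R1 (0.0598), nSyb ZT2 R1 (0.0788) or nSyb ZT2 R2 (0.0759). With the replicate block CG43373 (adjusted p = 0.0604) and norpA (0.0501) did not pass, and with library size alone CG43373 (0.0726) and CG34357 (0.0617) did not. The clk856 and nSyb libraries of CG43373 overlapped, at 53.0 to 69.9 RPM and 19.9 to 53.1 RPM.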

How the data were processed

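RNA was measured in 8 Smart-seq2 libraries. The authors aligned the reads to dm6 with STAR, removed PCR duplicates with Picard, and deposited, for each gene, the count of raw reads, the RPM and the RPKM. The submitters' processing notes also list bcl2fastq 2.20 and edgeR, and the annotation, counting program and counting strand are not given in the sources used here. The RPM values were deposited rounded, and their divisor was 1.84 to 1.88 times all reads listed. The deposited RPKM values were not used, because for 36 of 37 members the deposited length was the span plus 1 and for Itpr it was 0. Rows of unassigned reads were left out (5.53% to 8.94% outside genes and 5.67% to 6.10% ambiguous).

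The counts were tested with edgeR 4.0.16 in R 4.3.3 (TMM, filterByExpr with a minimum count of 10, quasi-likelihood test, Benjamini-Hochberg adjustment over all genes tested, threshold 0.05). DESeq2 1.42.0, other tests, scalings and filters, single times, a time covariate, a replicate block and leaving out each library were alternatives. The filter left out 4 members (Galphaf, Gbeta76C, Pka-C2 and inaC) in the genotype test. Levels between genes used reads per kilobase of merged exon from the Ensembl BDGP6.54 annotation, with 17161 genes found by symbol, 633 through an older symbol and 74 not at all. Python 3.11.15, numpy 2.4.6, pandas 2.3.3, scipy 1.17.1 and matplotlib 3.10.9 were used, and the test was tried on simulated data. The members and lists were chosen with earlier results of these data known. Named in full were the members past the threshold and the highest of each family per kilobase. Other lists were given by count with up to 3 of the largest changes among the genes past the threshold. The genes named beside them, CrebB, CngA, CrebA, Akap200, rg, CaMKII, CaMKI and the glial gene, were chosen after their values were seen. The list of older member symbols (9 names) had no rows, nor had yu, Rapgap1 and Orai.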

Additional observations from a re-analysis of the deposited data

Results flagged for a closer look

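Single libraries stood apart from the other 3 of their genotype for 3 members, by Dixon's test of the gap to the nearest library over the range. Chance alone flags about 1 in 20 groups of 4, and each member gave 2 groups. Galphai, the alpha subunit of Gi, was lowest in clk856 ZT14 R1, at 2.00 RPM where the other clk856 libraries had 2.67 to 2.80. It was highest in nSyb ZT14 R2, at 7.24 RPM where the other nSyb libraries had 0. Pkc53E, the conventional kinase C that was lower in clk856, was lowest in clk856 ZT2 R2, at 61.8 RPM where the others had 86.1 to 88.8. In nSyb it was highest in ZT14 R2, at 171 RPM (others 122 to 128), and its call held without either library (adjusted p = 0.0425 and 0.0403, edgeR). The eye kinase inaC reached 7.52 RPM in clk856 ZT2 R1 where the other clk856 libraries had 0 to 0.28, and 0.060 RPM, under the floor of 3 reads, in nSyb ZT2 R1 where the others had 0.

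For Pka-C1 both ZT14 libraries were below both ZT2 libraries in clk856 and above them in nSyb. The interaction log2 fold change was -0.62 (SE 0.23, unadjusted p = 0.0272, adjusted p = 0.754 by edgeR over 8926 genes), so that the difference between the time effects did not pass the test.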

How the results depend on the processing

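The genotype test called 1326 of 7784 genes and 16 of 33 members (9 higher, 7 lower). DESeq2 called 2127 genes, the ZT14 libraries alone 340 genes and 3 members (1 higher, 2 lower), and the ZT2 libraries alone 8 genes and 0 members. Leaving out each library gave from 942 of 8021 to 1380 of 8146 genes and 12 to 14 of 33 members. Between times in clk856, where 2 genes passed, DESeq2 called 85, the likelihood ratio test 97, no filter 81, a fit of all 8 libraries 0 and the replicate block 4. In nSyb, where 0 passed, DESeq2 called 224, the likelihood ratio test 6, the fit of all 8 libraries 1 and leaving out single libraries 0 to 1 (1 without nSyb ZT14 R1). For the interaction, where 1 gene passed, DESeq2 called 189, the likelihood ratio test 85, no filter 98 and leaving out single libraries 0 to 85 (85 without nSyb ZT2 R2). The cause of these differences was not tested. No member was called between times or in the interaction under any alternative.

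Over 18 alternatives of the genotype test, the members' log2 fold changes kept direction and side of the threshold in 498 cases, lost the call in 62, gained it in 6 and turned in 27. Those that turned belonged to 9 members that did not pass the test. With ZT14 alone the log2 fold changes were -0.54 for Galphai, -0.16 for Galphaq, 0.059 for Ac76E, -0.18 for Ac78C and -0.12 for dnc. With ZT2 alone they were 0.18 for rut, 0.51 for Pde9 and -0.024 for Pka-R2. Library size alone gave -0.12 for dnc and -0.079 for Pka-R2, and time as a covariate -0.0063 for dnc and 0.033 for Pde9. Leaving out each library gave -0.21 to 0.021 for Galphas, -0.040 to 0.46 for Galphaq, -0.16 to 0.18 for rut, -0.12 to 0.11 for dnc, -0.14 to 0.24 for Pde9 and -0.14 to 0.26 for Pka-R2.

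The replicate numbers did not pair the samples: deviations of same-numbered libraries correlated at -0.026 to 0.031 over 6 pairs and 7784 genes. With the replicate block the genotype test called 1265 of 7784 genes and 15 of 33 members (8 higher, 7 lower). Pde8 (adjusted p = 0.0541) and Itpr (0.0552) were lost and Pkc98E (0.0295) was gained, and rut had a log2 fold change of 0.0031. With the deposited gene length 38 of 54 family shares moved by more than 1 SD. The summed levels of the PKA catalytic and of the PKA regulatory subunits then no longer overlapped between genotypes and were higher in clk856, and the share of dnc no longer overlapped and was lower. Members with few reads, such as Galphai with 0 to 132 reads in a library, are limited by depth.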

Other observations

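The libraries of nSyb varied more among themselves than those of clk856 in this pathway. The median coefficient of variation of RPM over 4 libraries was 0.146 in clk856 and 0.216 in nSyb for the 33 members tested, and 23 of the 33 varied more in nSyb. Over all 7784 genes tested the medians were 0.212 and 0.355, so that the members varied less than the median gene in both. The members had a median percentile of level of 80.1 in clk856 and 80.9 in nSyb, ranked over all genes, those without reads included. Their spread was not compared with that of genes of like level. The members are long genes. Their median span was 22295 bases, introns included, and their median merged exon length 5725 bases, where the genes tested between genotypes had 3018 and 2246 bases.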
